A study of Arabidopsis thaliana with 35 samples.

Results

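The WRKY family of *Arabidopsis thaliana* was followed through a study of how 1 h of cold or heat changes the seedling transcriptome in the morning and in the afternoon, with and without parts of the circadian clock. Its members were taken as every gene whose short description in the deposited tables contains WRKY. This rule found 70 of the 37898 genes of the tables, and all 70 were present in both the morning and the afternoon table. Of the 70, 67 carry a WRKY number, and 3 (AT3G32090, AT4G31805 and AT5G46310) carry a locus name only. A further 8 genes mention WRKY only in their long description and were not counted.

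WRKY proteins are plant transcription factors that carry 1 or more copies of a DNA-binding domain with a conserved WRKY peptide and a zinc finger. They bind W boxes, short elements with a TTGAC core, and many WRKY genes hold W boxes in their own promoters, so that the family forms a web of mutual activation and repression. In seedlings the family is best known for the responses to pathogens, salicylic acid and jasmonic acid, in which mitogen-activated protein kinases phosphorylate several members, and single members act in senescence, phosphate starvation, pollen development and tolerance of heat, cold and drought. Family members are sorted by domain number and zinc finger type into group I, the subgroups IIa to IIe, and group III. Here group I held 11 members, IIa 3, IIb 8, IIc 17, IId 7, IIe 7 and III 12, while *WRKY10* and *WRKY45* were set apart as other members and the 3 genes with a locus name only were left without a group.

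Whole seedlings of wild type (WT, the Col-0 accession) and of the clock double mutants *cca1lhy* (*cca1-1/lhy-20*) and *prr7prr9* (*prr7-3/prr9-1*) were grown for 12 d at 22 °C under days of 12 h light on medium with sucrose, then held for 1 h at 10, 22 or 37 °C. CCA1 and LHY are repressors that peak at dawn, and PRR7 and PRR9 are repressors that follow them in the day. Samples were collected 1 h after lights on (ZT1; WT and *cca1lhy*, 4 libraries in each group except 3 for WT at 10 °C) or 6 h after lights on (ZT6; WT and *prr7prr9*, 2 libraries in each group), which gave 35 libraries of RNA-seq. The ZT1 libraries are described as biological replicates and the ZT6 libraries only as replicates, so a p-value at ZT6 measures the spread between these samples, which may be technical. The 2 times were sequenced on different flowcells and normalized separately, so time and sequencing run cannot be told apart, and levels were compared within a time only. Each mutant was sampled at a single time, and each is a single combination of alleles.

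The tables give log2 CPM, read counts scaled to a common library total, with an offset of 5 reads added to every gene before scaling, so that a gene without reads stands at 1.23 at ZT1 and at -1.68 at ZT6. Read counts and totals could be recovered from the steps of the values, and the libraries were estimated at 1.09 to 9.05 M reads in the morning table and 13.0 to 29.7 M in the afternoon table. At ZT1 the 37 °C libraries were shallow (1.27 to 1.71 M in WT and 1.23 to 1.84 M in *cca1lhy*) and the 10 °C libraries reached 8.97 and 9.05 M, so depth moved with temperature there, and its part in the results was not tested except by the comparison on recovered reads given further on. Of the targeted genes, *CCA1* and *PRR7* were lower in their mutants throughout: *CCA1* ranged from 2.03 to 5.29 in *cca1lhy* against 8.26 to 9.64 in WT at ZT1, and *PRR7* from 1.73 to 3.7 in *prr7prr9* against 6.52 to 8.54 in WT at ZT6. *LHY* ranged from 5.94 to 6.99 in *cca1lhy* and from 6.74 to 9.86 in WT, and *PRR9* from 2.6 to 5.37 in *prr7prr9* and from 2.73 to 6.6 in WT, both with overlap, and *PRR9* did not pass the test of a genotype difference at 22 °C (LFC 0.07, limma adjusted p = 1). Leaf markers summed to 49000 to 50100 CPM in WT at 22 °C and 18600 to 26200 CPM at 37 °C at ZT1, with 3 of 4 markers lower, and root markers to 1770 to 3510 and 602 to 750 CPM, with 1 of 5 lower. At ZT6 the leaf sum went from 17600 to 24400 CPM at 22 °C to 10600 to 10900 CPM at 37 °C in WT (1 of 4 markers lower) and the root sum from 2440 to 2570 to 520 to 603 CPM (1 of 5 lower), and 3 of 5 root markers were lower in heat in each mutant. In WT cold at ZT6, 1 of 4 leaf markers and 2 of 5 root markers were higher. The part of these markers in the WRKY results was not tested, and in whole seedlings fewer cells of a type and less RNA per cell cannot be told apart. At ZT6, 4 libraries (WT replicate 2 at 37 °C and, of *prr7prr9*, replicate 3 at 22 and 37 °C and replicate 2 at 10 °C) held 27329 to 29244 genes above the lowest value, against 24403 to 26018 in the other 8.

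Most of the family was expressed at a low level in these seedlings. Enough libraries had reads for 61 of 70 members to be tested at ZT1 and 66 of 70 at ZT6, and 11 members had at most 5 reads in every one of the 35 libraries (AT3G32090, AT5G46310, *WRKY10*, *WRKY34*, *WRKY38*, *WRKY59*, *WRKY62*, *WRKY64*, *WRKY66*, *WRKY67* and *WRKY68*). *WRKY64* had no read in any library, and *WRKY10*, *WRKY59*, *WRKY66* and AT5G46310 had none at ZT1. *WRKY10* is known from the endosperm and *WRKY34* from pollen, which a seedling lacks. The pollen markers summed to 7.58 to 11.1 CPM at ZT1 and 3.57 to 8.5 CPM at ZT6, sums that include the offset. The seed markers summed to 81.7 to 491 CPM at ZT1 and 2.77 to 48 CPM at ZT6, and the source of these reads was not tested. Summed over the 70 members, WRKY reads made up 375 to 424 CPM of the estimated totals in WT at 22 °C at ZT1, 577 to 624 CPM at 10 °C and 303 to 346 CPM at 37 °C. The 3 ranges did not overlap, with the cold libraries highest and the heat libraries lowest. At ZT6 the same sums were 306 and 393 CPM at 22 °C, 512 and 527 CPM at 10 °C and 283 and 304 CPM at 37 °C, again with the cold libraries apart from the rest and with heat and 22 °C next to each other.

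A gene was called where limma gave an adjusted p under 0.05 and an absolute log2 fold change (LFC) over 1 in a fit over all genes, and for interactions and differences between the times by the adjusted p alone. In all 30 of the 66 tested members were called in at least 1 comparison, and 26 in at least 1 of the 8 comparisons of a stress temperature with 22 °C. Of those 26, 19 changed at 37 °C, 10 at 10 °C and 3 at both. In WT alone 17 members were called in the 4 temperature comparisons, 13 of them in only 1. The exceptions were *WRKY72*, called in 3, and *WRKY33*, *WRKY7* and *WRKY75*, called in 2 each. The share of all genes called in at least 1 comparison was not computed, so these counts describe the members only.

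**Figure D1:**
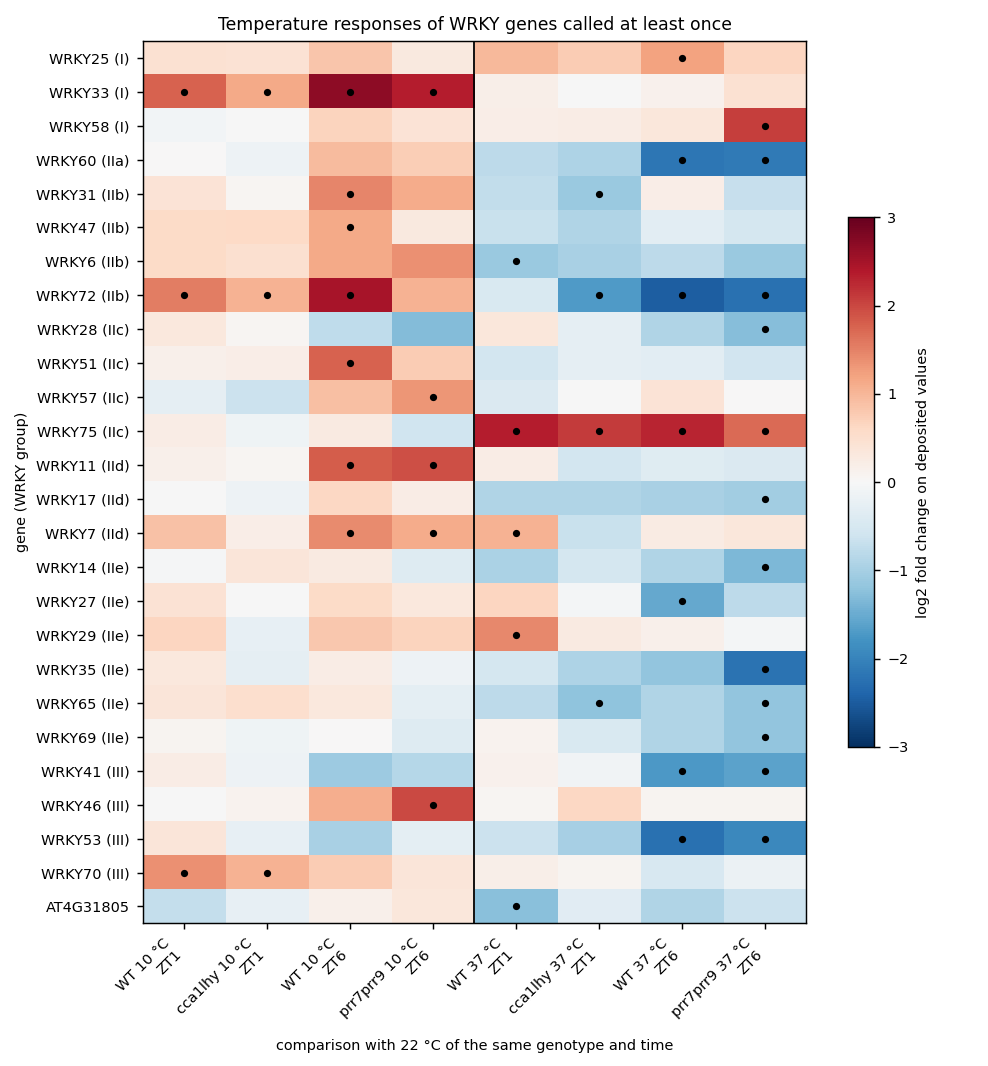
Heat map of the LFC against 22 °C of the 26 WRKY members called in at least 1 temperature comparison, with 1 column for each genotype, time and stress temperature; red is higher and blue is lower than at 22 °C, and a dot marks a called change. WRKY33 and WRKY72 are red in the 10 °C columns, WRKY75 is red in all 4 columns of 37 °C, and WRKY72 is blue in 3 of the 4 columns of 37 °C with a dot.

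The upstream sequences of 4 members on which the results turn are given here from RefSeq (TAIR10.1 assembly), each running from 250 bases before to 50 bases after the annotated start of the gene, 5′ to 3′ on the strand of the gene. They are shown for a member that rose in cold in every group tested (*WRKY33*), one that rose in heat in every group tested (*WRKY75*), a well-covered one that fell in heat at ZT6 (*WRKY53*) and one whose heat response differed between *cca1lhy* and WT (*WRKY7*). Capitals mark W boxes (TTGACC or TTGACT, or GGTCAA or AGTCAA on the other strand) in the first 3 and, in *WRKY7*, the evening element AAAATATCT and the CCA1-binding site AAAAATCT (AGATTTTT on the other strand), the elements through which CCA1 and LHY bind.
WRKY33 (chr2:16107985-16108284, plus strand): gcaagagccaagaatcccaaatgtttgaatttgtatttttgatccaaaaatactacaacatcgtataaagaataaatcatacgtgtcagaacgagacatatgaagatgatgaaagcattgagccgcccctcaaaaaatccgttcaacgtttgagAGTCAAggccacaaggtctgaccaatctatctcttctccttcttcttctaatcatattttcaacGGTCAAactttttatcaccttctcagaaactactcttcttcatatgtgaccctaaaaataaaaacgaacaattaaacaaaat
WRKY75 (chr5:4151152-4151451, minus strand): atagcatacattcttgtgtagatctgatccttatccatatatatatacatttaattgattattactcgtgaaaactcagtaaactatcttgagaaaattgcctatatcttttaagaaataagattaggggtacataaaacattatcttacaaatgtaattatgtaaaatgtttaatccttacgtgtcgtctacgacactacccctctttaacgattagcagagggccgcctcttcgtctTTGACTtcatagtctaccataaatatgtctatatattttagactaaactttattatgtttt
WRKY53 (chr4:12393933-12394232, minus strand): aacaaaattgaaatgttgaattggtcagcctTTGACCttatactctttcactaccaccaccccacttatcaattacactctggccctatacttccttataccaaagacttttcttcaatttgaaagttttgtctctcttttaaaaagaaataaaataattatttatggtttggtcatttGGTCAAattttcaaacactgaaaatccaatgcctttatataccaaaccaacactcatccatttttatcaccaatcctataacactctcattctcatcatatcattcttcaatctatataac
WRKY7 (chr4:12571288-12571587, plus strand): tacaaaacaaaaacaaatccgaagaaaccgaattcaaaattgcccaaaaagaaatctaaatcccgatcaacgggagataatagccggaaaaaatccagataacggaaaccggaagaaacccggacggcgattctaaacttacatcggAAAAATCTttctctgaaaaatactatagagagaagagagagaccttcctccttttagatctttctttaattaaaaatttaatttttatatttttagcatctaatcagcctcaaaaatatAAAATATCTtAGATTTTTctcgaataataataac
*WRKY33* held W boxes beginning 96 and 32 bases before its start, *WRKY53* at 219 and 71 bases before, and *WRKY75* a single one at 11 bases before. *WRKY7* held CCA1-binding sites beginning 103 bases before and 26 bases after its start and an evening element 16 bases after it, and no W box. Over the family, a W box of either form was found in 24 of 70 members (34.3%) and in 32.4% of the 27443 protein-coding windows of the same length, read on both strands. A CCA1-binding site was found in 3 members (4.29%, against 7.88% of all windows), an evening element in 3 (4.29% against 2.82%), a heat shock element (GAANNTTC) in 9 (12.9% against 11.6%) and CGCGTT, letters bound by CAMTA stress factors, in 2 (2.86% against 3.4%). These matches are letters in a window and were not measured as binding.

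Cold raised a small set of members. In WT at ZT1, 3 of 61 members rose at 10 °C, *WRKY33*, *WRKY72* and *WRKY70*, against 1.03% of all genes called as higher and 1.87% in either direction. In WT at ZT6, 7 of 66 rose, *WRKY33*, *WRKY72*, *WRKY11*, *WRKY51*, *WRKY31*, *WRKY7* and *WRKY47*, against 3.94% of all genes called as higher and 5.94% in either direction. The median LFC of the members was 0.18 at ZT1 and 0.34 at ZT6, beside 0.01 and 0 for all genes tested, and 46 members lay above and 15 below 0 at ZT1, and 45 above and 18 below at ZT6.

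*WRKY33*, a MAP kinase substrate needed for camalexin synthesis and resistance to necrotrophic fungi, had the largest LFC in WT cold at both times on the deposited values. On recovered reads, the alternative scale described further on, *WRKY33* (1.70 and 2.75) was passed by *WRKY72* (2.07) and *WRKY70* (1.81) at ZT1 and by *WRKY51* (4.00) at ZT6. At ZT1 its log2 CPM was 5.77, 6.01 and 6.5 in the 3 WT libraries at 10 °C against 4.47, 4.21, 4.03 and 4.6 at 22 °C and 4.79, 5.14, 3.96 and 4.18 at 37 °C, which in recovered reads was 158 to 484 reads in the cold and 15 to 90 at 22 °C. At ZT6 it stood at 5.76 and 5.51 at 10 °C against 3.48 and 2.44 at 22 °C and 3.11 and 3.08 at 37 °C. The cold libraries were above all others at both times, and the heat libraries overlapped those of 22 °C. The LFC at 10 °C was 1.76 ± 0.29 at ZT1 (SE, n = 3 and 4, limma adjusted p = 3.2e-04) and 2.67 ± 0.28 at ZT6 (n = 2 and 2, limma adjusted p = 7.8e-04). At 37 °C *WRKY33* had 0.19 ± 0.27 in the morning (adjusted p = 0.646) and 0.13 ± 0.28 in the afternoon (adjusted p = 0.823). Among WRKY reads, *WRKY33* took a median of 4.8% at 22 °C and 10.8% at 10 °C in WT at ZT1, and 2.3% and 9.7% at ZT6.

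*WRKY72*, a group IIb member with a role in basal defence, moved in opposite directions in cold and in heat. At ZT6 its log2 CPM was 3.88 and 4.23 in WT at 10 °C (258 and 421 reads), 1.69 and 1.46 at 22 °C (63 and 42 reads) and -0.8 and -0.99 at 37 °C (2 and 3 reads). The 3 temperatures were fully apart, with an LFC of 2.48 ± 0.30 in cold (limma adjusted p = 0.0013) and -2.47 ± 0.30 in heat (limma adjusted p = 4.3e-04). At ZT1 it was 4.01, 3.79 and 4.04 at 10 °C, 2.89, 2.13, 1.84 and 2.76 at 22 °C and 1.91, 1.94, 1.82 and 2.15 at 37 °C, where the heat libraries held 1 or 2 reads each and overlapped those of 22 °C. The cold LFC at ZT1 was 1.54 ± 0.29 (limma adjusted p = 0.0015).

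*WRKY70*, which activates salicylic acid genes and represses jasmonic acid genes, rose in WT cold at ZT1 from 2.59, 1.81, 2.46 and 2.84 at 22 °C (1 to 20 reads) to 3.4, 3.87 and 4.08 at 10 °C (28 to 92 reads), an LFC of 1.36 ± 0.34 (limma adjusted p = 0.019). All 3 cold libraries were above the 4 at 22 °C. The call was lost without WT replicate 3 at 22 °C (1.15, adjusted p = 0.0787), without WT replicate 3 at 10 °C (1.32, adjusted p = 0.0848) and without WT replicate 2 at 10 °C (1.21, adjusted p = 0.124). At ZT6 its LFC was 0.75 ± 0.53 (adjusted p = 0.467).

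In WT cold at ZT6 (3.94% of all genes called as higher), *WRKY11* and *WRKY7* were called out of 7 members of the calmodulin-binding group IId. In group IIb, *WRKY72*, *WRKY31* and *WRKY47* were called out of 8, with a median LFC of 1.13. The calls of *WRKY31* and *WRKY47* depended on single libraries, as given below. In *prr7prr9* cold (2.19% of all genes called as higher), 2 of 7 members of group IId and 0 of 8 of group IIb were called. *WRKY11*, which restrains basal resistance together with the related *WRKY17*, went from 3.58 and 2.96 at 22 °C (243 and 130 reads) to 4.77 and 5.42 at 10 °C (485 and 963 reads), an LFC of 1.82 ± 0.31 (limma adjusted p = 0.0072). *WRKY7* went from 3.22 and 3.19 to 4.68 and 4.56, an LFC of 1.41 ± 0.20 (limma adjusted p = 0.0036). Both groups of values were apart, more widely for *WRKY7*, whose replicates differed by at most 0.12. The same was true of all 7 members called in this comparison.

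*WRKY51*, which acts in the salicylic acid-dependent repression of jasmonic acid responses, was nearly silent at 22 °C at ZT6, with 1 read in each WT library, and had 23 and 25 reads at 10 °C. On the deposited scale this was -1.35 and -1.27 against 0.47 and 0.44, an LFC of 1.76 ± 0.26 (limma adjusted p = 0.0037). *WRKY31* rose by 1.46 ± 0.38 (limma adjusted p = 0.045) and *WRKY47* by 1.13 ± 0.25 (limma adjusted p = 0.024). *WRKY31* lost its call in all 4 fits that left out a single library of WT at 22 or 10 °C (highest adjusted p = 0.169), *WRKY47* in 3 of the 4 (highest adjusted p = 0.106) and *WRKY11* in 1, without WT replicate 1 at 10 °C (1.50, adjusted p = 0.0514). *WRKY33*, *WRKY72*, *WRKY7* and *WRKY51* kept it in all 4.

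**Figure D2:**
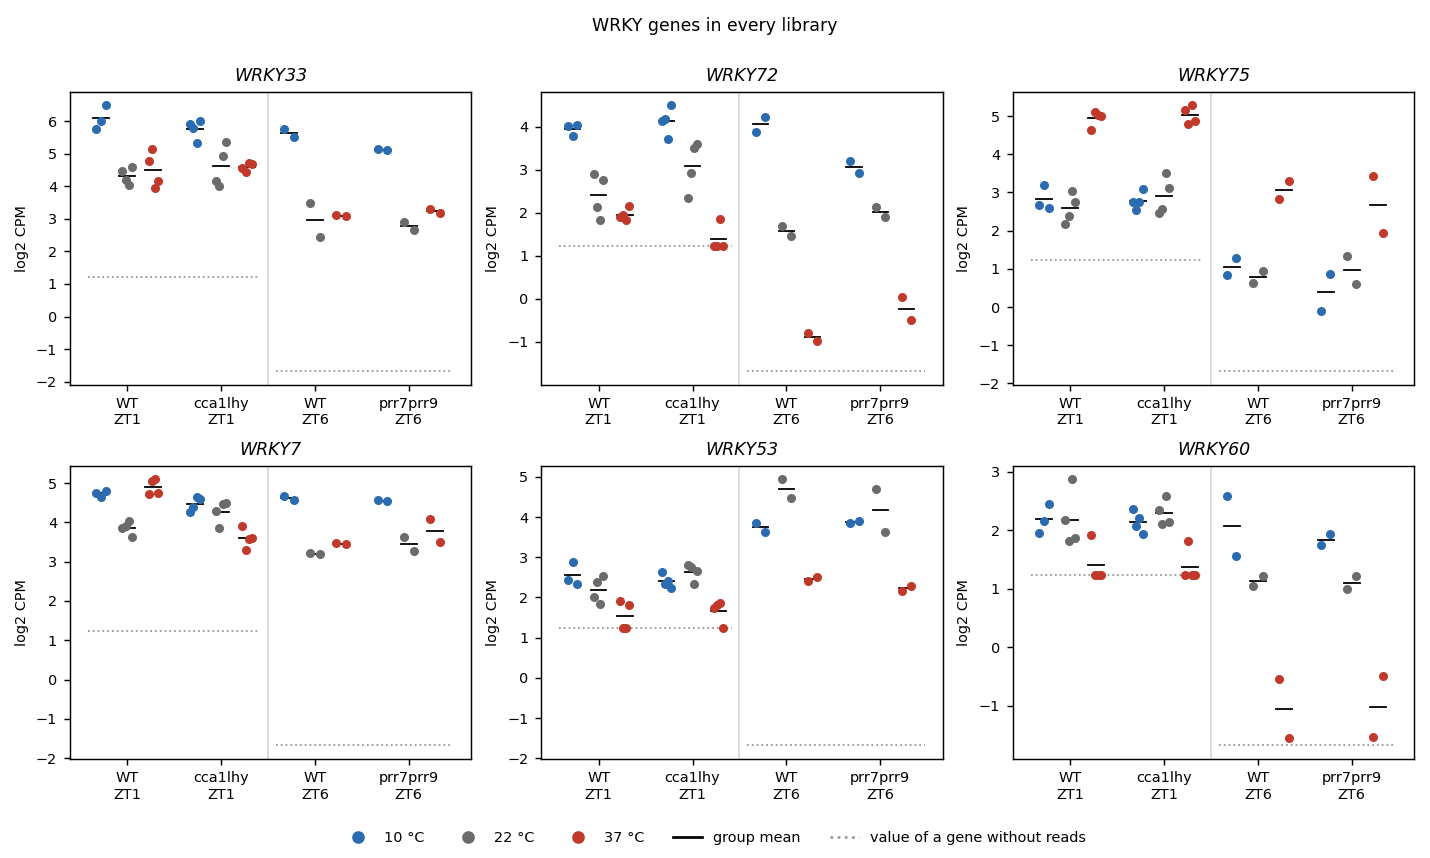
Log2 CPM of WRKY33, WRKY72, WRKY75, WRKY7, WRKY53 and WRKY60 in each library (points) of the 12 groups, with the group mean as a line and the value of a gene without reads as a dotted line for each time. WRKY33 stands above its 22 °C libraries at 10 °C in WT and WRKY75 at 37 °C in all genotypes, while WRKY60 has libraries on or near the dotted line at 37 °C.

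Heat moved members in both directions. In WT at ZT1, 5 of 61 members were called at 37 °C (13.3% of all genes): *WRKY75*, *WRKY29* and *WRKY7* rose, and *WRKY6* and AT4G31805 fell. In WT at ZT6, 7 of 66 were called (14.4% of all genes): *WRKY75* and *WRKY25* rose, and *WRKY72*, *WRKY53*, *WRKY60*, *WRKY41* and *WRKY27* fell. On the deposited values these shares, 8.2% and 10.6%, were below those of all genes. On recovered reads, the alternative scale described further on, 17 of 61 and 12 of 66 members were called. Those shares were above the 21.7% and 15.3% of all genes on that scale. The median LFC on the deposited values was 0.05 at ZT1 and -0.18 at ZT6, beside -0.06 and 0 for all genes. There, 33 members lay above and 28 below 0 at ZT1, and 27 above and 37 below at ZT6.

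*WRKY75*, known for the response to phosphate starvation and for leaf senescence, had the largest rise in WT heat and was the only member called at 37 °C in WT at both times on the deposited values. At ZT1 it stood at 4.63, 5.11, 5.04 and 5.01 in WT at 37 °C against 2.18, 2.38, 3.03 and 2.76 at 22 °C and 2.67, 3.19 and 2.59 at 10 °C. All 4 heat libraries were above the other 7, with 26 to 45 reads against 3 to 18 at 22 °C, and the LFC was 2.36 ± 0.24 (limma adjusted p = 2.4e-08). Its share of all WRKY reads went from a median of 0.9% to 8.5%. At ZT6 it stood at 2.82 and 3.31 at 37 °C, 0.62 and 0.95 at 22 °C and 0.83 and 1.28 at 10 °C, an LFC of 2.28 ± 0.53 in heat (limma adjusted p = 0.014). That call was lost without WT replicate 2 at 37 °C (2.04, adjusted p = 0.075) and without WT replicate 3 at 22 °C (2.12, adjusted p = 0.0689).

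*WRKY29*, a target of the MAP kinase cascade that flagellin sets off, rose in WT heat at ZT1 from 1.82, 1.81, 2.2 and 1.86 at 22 °C (1 to 5 reads) to 3.3, 3.33, 3.75 and 3.09 (7 to 14 reads), an LFC of 1.44 ± 0.24 (limma adjusted p = 3.6e-05). *WRKY7* rose from 3.87, 3.92, 4.03 and 3.64 to 4.72, 5.05, 5.1 and 4.74, an LFC of 1.04 ± 0.17 (limma adjusted p = 2.9e-05). The heat libraries were above all of those at 22 °C for each gene. *WRKY7* lay so near the fold threshold that its LFC was 0.99, 0.97 or 0.96 without WT replicate 3 or 2 at 37 °C or WT replicate 1 at 22 °C.

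Of the members that fell in heat at ZT1, *WRKY6*, a group IIb factor of senescence and phosphate homeostasis, was the best covered. It went from 4.91, 5.04, 4.94 and 4.78 at 22 °C (31 to 103 reads) to 3.89, 4.01, 3.75 and 3.53 at 37 °C (11 to 14 reads), with an LFC of -1.12 ± 0.14 (limma adjusted p = 9.0e-07). AT4G31805, which was described as a WRKY family factor but had a myosin heavy chain-related protein as its best match, went from 7 to 17 reads at 22 °C to 1 read in each heat library, an LFC of -1.25 ± 0.21 (limma adjusted p = 4.8e-05). Neither overlapped between the groups. AT4G31805 shares 310 bases with the gene AT4G31810 on the opposite strand, and since the use of strand in the counting is not stated, their reads there cannot be told apart.

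At ZT6 the members that fell in WT heat belonged to 4 groups of the family. *WRKY53*, a positive factor of leaf senescence in group III, was well covered and stood at 4.94 and 4.47 at 22 °C (630 and 373 reads), 2.42 and 2.52 at 37 °C (51 and 61 reads) and 3.85 and 3.64 at 10 °C. Its heat libraries were the lowest and the LFC was -2.23 ± 0.30 (limma adjusted p = 9.2e-04). *WRKY41*, also of group III, had 109 and 92 reads at 22 °C and 15 and 11 at 37 °C, an LFC of -1.73 ± 0.49 (limma adjusted p = 0.033) that lost its call in all 4 fits leaving out a single library (highest adjusted p = 0.148). *WRKY53* and *WRKY41* overlap the genes of the HMG-box proteins 3xHMG-box2 (341 bases) and 3xHMG-box1 (517 bases) on the opposite strand, and their reads there cannot be told apart.

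*WRKY60*, a group IIa repressor of defence and abscisic acid responses, had 37 and 34 reads at 22 °C and 3 and 1 at 37 °C at ZT6, or 1.04 and 1.22 against -0.55 and -1.55 on the deposited scale, an LFC of -2.18 ± 0.49 (limma adjusted p = 0.012). The call was lost without WT replicate 2 at 37 °C (-1.67, adjusted p = 0.074) and without WT replicate 2 at 22 °C (-2.09, adjusted p = 0.0595). *WRKY27*, a group IIe factor of the response to bacterial wilt, had 114 and 80 reads at 22 °C, 12 and 17 at 37 °C and 110 and 221 at 10 °C, and its LFC in heat was -1.53 ± 0.29 (limma adjusted p = 0.0052). It kept its call in all 4 fits without a single library, as did *WRKY53* and *WRKY72*.

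The 3 members known for heat tolerance, *WRKY25*, *WRKY26* and *WRKY33* of group I, and the calmodulin-binding *WRKY39* differed among themselves. *WRKY25* was higher in every WT heat library: at ZT1 4.28, 4.28, 4.23 and 4.23 in WT at 37 °C against 3.36, 2.95, 3.32 and 3.53 at 22 °C, an LFC of 0.97 ± 0.22 (limma adjusted p = 0.0015) that missed only the fold threshold, and at ZT6 5.12 and 4.81 against 3.81 and 3.69, an LFC of 1.21 ± 0.22 (limma adjusted p = 0.0039). *WRKY39* had an LFC of 0.82 ± 0.16 at ZT1 (limma adjusted p = 4.0e-04) and 0.81 ± 0.18 at ZT6 (limma adjusted p = 0.011), both under the fold threshold, with every WT heat library above every WT library of 22 °C. Its median share of WRKY reads was 4.5% at 22 °C and 9.5% at 37 °C at ZT1, and 7.9% and 16.7% at ZT6. *WRKY26* gave -0.73 ± 0.30 in the morning (adjusted p = 0.0661) and -0.57 ± 0.52 in the afternoon (adjusted p = 0.503), and *WRKY33*, as given above, did not pass the test in heat at either time. In the mutants neither *WRKY25* nor *WRKY39* was called in heat: *WRKY25* gave 0.76 ± 0.22 in *cca1lhy* (limma adjusted p = 0.011), where its groups overlapped, and 0.65 ± 0.22 in *prr7prr9* (adjusted p = 0.0641), and *WRKY39* gave 0.34 ± 0.16 (adjusted p = 0.127), also with overlap, and 0.51 ± 0.18 (adjusted p = 0.0726). *WRKY34*, known for the cold sensitivity of pollen, had at most 3 reads in any library.

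Group IIa holds the interacting repressors *WRKY18*, *WRKY40* and *WRKY60*. Besides the fall of *WRKY60* at 37 °C, none of the 3 was called in WT. *WRKY40* had LFCs of 1.28 ± 0.44 in cold (adjusted p = 0.107) and -0.92 ± 0.44 in heat (adjusted p = 0.177) at ZT6. *WRKY18* was the most variable of the 3, with 3.95 and 1.37 in the 2 WT libraries at 10 °C at ZT6 and 2.64 and 1.89 at 22 °C, so that its LFC of 0.39 ± 0.82 (adjusted p = 0.905) could not be told from 0.

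The offset in the deposited values draws the LFC of sparsely read genes towards 0, and many members had few reads at ZT1. A second fit by voom of limma on the recovered reads, an alternative chosen after the data were seen, called 17 of 61 members in WT heat at ZT1 (21.7% of all genes) where the deposited values gave 5 and 13.3%. That fit differs from the first in offset, normalization and weighting together, so the change in counts cannot be assigned to any one of them. The 5 stayed called in the same direction, and 12 others joined. Of the 17, 5 rose, the additions being *WRKY24* (LFC 1.61 on reads, adjusted p = 0.012) and *WRKY25* (1.04, adjusted p = 0.018). The other 12 fell, with the additions *WRKY2* (-1.87), *WRKY60* (-1.87), *WRKY53* (-1.76), *WRKY26* (-1.69), *WRKY23* (-1.60), *WRKY3* (-1.55), *WRKY14* (-1.37), *WRKY47* (-1.35), *WRKY31* (-1.35) and *WRKY17* (-1.25).

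**Figure D3:**
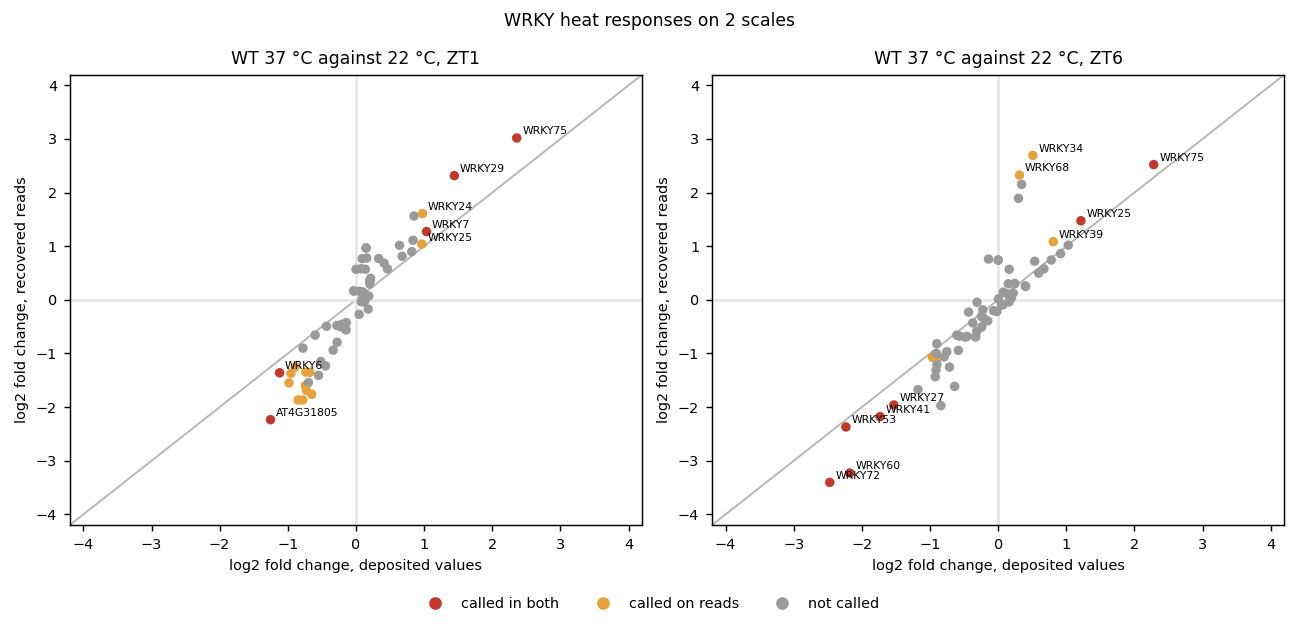
LFC of WT at 37 °C against 22 °C for each tested WRKY member on the deposited values (horizontal axis, log2) and on recovered reads (vertical axis, log2), at ZT1 (left) and ZT6 (right), with the line of equal values. Many points at ZT1 lie farther from 0 on reads than on the deposited values, and 17 members passed on reads and 5 on the deposited values there, while at ZT6 the numbers were 12 and 7.

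On reads, WT cold at ZT1 had 7 called members (3.27% of all genes), with *WRKY22* (1.74), *WRKY29* (1.37) and *WRKY7* (1.04) added to the rises and *WRKY38* (-1.93, at most 5 reads in a library) to the falls. WT heat at ZT6 had 12 (15.3% of all genes), with *WRKY39* (1.08), *WRKY34* (2.69) and *WRKY68* (2.32) added to the rises, the last 2 from at most 3 reads in a library, and *WRKY14* (-1.09) and *WRKY17* (-1.07) to the falls. On reads, *WRKY75*, *WRKY25*, *WRKY53*, *WRKY60*, *WRKY14* and *WRKY17* were thus called in WT heat at both times, each in the same direction. WT cold at ZT6 had 9 (7.15% of all genes), with *WRKY36* (1.70) and *WRKY57* (1.07) added, and *WRKY51* at 4.00 in place of 1.76. In *cca1lhy* heat the count was 13 (22.5% of all genes). At every temperature comparison, each member called on the deposited values was also called on reads in the same direction.

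The response to heat differed between *cca1lhy* and WT for 2 members, *WRKY7* and *WRKY24* (0.913% of all genes by an adjusted p under 0.05). *WRKY7* rose in WT at 37 °C and was lower in *cca1lhy* at the same temperature: WT went from a range of 3.64 to 4.03 up to 4.72 to 5.1, while *cca1lhy* stood at 4.29, 3.86, 4.46 and 4.5 at 22 °C and 3.91, 3.29, 3.57 and 3.61 at 37 °C. All 4 mutant libraries in heat, with 9 to 20 reads, were below all 4 WT libraries, with 28 to 47 reads. The LFC of *cca1lhy* against WT at 37 °C was -1.30 ± 0.17 (limma adjusted p = 1.9e-05), and the difference between the genotypes in their heat response was -1.72 ± 0.24 (limma adjusted p = 5.8e-04). At 10 °C *WRKY7* stood at 4.76, 4.65 and 4.81 in WT and at 4.26, 4.39, 4.65 and 4.59 in *cca1lhy*. The promoter window of *WRKY7*, printed above, is 1 of the 3 in the family with the CCA1-binding letters. *WRKY13* and *WRKY41* also hold them and were not called between *cca1lhy* and WT, and *WRKY24* holds none. A part of these letters in the difference was not tested.

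*WRKY24*, a group IIc member, went from 2.18, 1.81, 1.84 and 1.8 to 2.6, 3.33, 2.8 and 2.81 in WT heat, and from 2.03, 1.9, 2.34 and 1.8 to 2.29, 1.23, 1.23 and 1.23 in *cca1lhy* heat, where 3 of the 4 libraries held no read of it. The LFC of *cca1lhy* against WT at 37 °C was -1.39 ± 0.21 (limma adjusted p = 1.3e-04) and the difference in heat response -1.5 ± 0.29 (limma adjusted p = 0.012). WT in heat had 3 to 7 reads, so the direction rests on few reads, although it was also called on recovered reads (difference -3.18, adjusted p = 0.029). Both *WRKY7* and *WRKY24* kept the call of the difference in all 16 fits without a single library.

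At 37 °C, 4 members differed between *cca1lhy* and WT (2.13% of all genes). Besides *WRKY7* and *WRKY24*, *WRKY3*, which acts with *WRKY4* in resistance to necrotrophs, stood at 4.28, 4.56, 4.46 and 4.06 in *cca1lhy* (14 to 30 reads) against 2.34, 3.33, 2.8 and 3.33 in WT (2 to 9 reads), an LFC of 1.39 ± 0.21 (limma adjusted p = 1.2e-04). *WRKY3* was also higher in *cca1lhy* at 22 °C by 0.72 ± 0.21 (limma adjusted p = 0.045, under the fold threshold), and its heat responses did not pass the test of a difference (0.67 ± 0.29, adjusted p = 0.324). *WRKY26* gave 1.01 ± 0.30 (limma adjusted p = 0.044) with overlapping groups, and it lost its call in 6 of the 8 fits without a single library (highest adjusted p = 0.139) and on recovered reads (adjusted p = 0.0962).

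No member was called between *cca1lhy* and WT at 22 °C (1.72% of all genes) or at 10 °C (1.57% of all genes) by limma, where 9 and 3 members had an unadjusted p under 0.05 and the fit on reads called 1 and 0. The 1 was *WRKY29*, at 2.46, 2.76, 3.69 and 2.77 in *cca1lhy* against 1.82, 1.81, 2.2 and 1.86 in WT at 22 °C, with an LFC of 0.99 ± 0.24 (limma adjusted p = 0.013) on the deposited values and 1.90 on reads. The interaction of *cca1lhy* with cold called no member (0.0117% of all genes), with 2 at an unadjusted p under 0.05 and 0 on reads.

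Within *cca1lhy*, 4 members were called at 37 °C (12.7% of all genes) and 3 at 10 °C (2.15% of all genes). *WRKY75* rose in heat by 2.11 ± 0.24 (limma adjusted p = 1.8e-07), from 2.46, 2.57, 3.51 and 3.11 to 5.15, 4.78, 5.29 and 4.86. *WRKY72* fell by 1.71 ± 0.27 (limma adjusted p = 2.4e-05), from 5 to 20 reads to 0, 0, 1 and 0 reads, *WRKY65* by 1.2 ± 0.20 (limma adjusted p = 3.6e-05) and *WRKY31* by 1.10 ± 0.19 (limma adjusted p = 8.9e-05). All 4 kept their call without any single library. In cold *WRKY33* rose by 1.15 ± 0.27 (limma adjusted p = 0.0083), *WRKY70* by 1.05 ± 0.31 (limma adjusted p = 0.047) and *WRKY72* by 1.03 ± 0.27 (limma adjusted p = 0.020). These 3 were also the members called in WT cold at ZT1. The *WRKY33* groups overlapped here. Without *cca1lhy* replicate 3 at 22 °C none of the 3 was called (0.94, 0.98 and 0.98). *WRKY72* also lost its call without *cca1lhy* replicate 4 at 22 °C (0.78, adjusted p = 0.109) or replicate 1 at 10 °C (0.91, adjusted p = 0.0879), and *WRKY70* lost it in 7 of 8 such fits, all but that without replicate 4 at 22 °C (0.88 to 1.16, highest adjusted p = 0.154), and with the replicate number as a block (adjusted p = 0.0513).

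No member differed between *prr7prr9* and WT at ZT6 at 22 °C (0.286% of all genes), 37 °C (0.145%) or 10 °C (0.141%) by limma, and the interactions with heat (0.00321%) and cold (0.0835%) called none either. At an unadjusted p under 0.05 there were 1, 5 and 8 members in the 3 comparisons and 2 and 7 in the interactions, and the fit on recovered reads called 0 in each. With 2 libraries in a group these counts do not show that the genotypes were alike.

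Within *prr7prr9*, 12 of 66 members were called at 37 °C (14.1% of all genes) and 5 at 10 °C (3.6% of all genes). In heat *WRKY58* and *WRKY75* rose and 10 members fell, namely *WRKY72* (-2.24), *WRKY35* (-2.23), *WRKY60* (-2.12), *WRKY53* (-1.94), *WRKY41* (-1.60), *WRKY14* (-1.35), *WRKY28* (-1.27), *WRKY65* (-1.19), *WRKY69* (-1.17) and *WRKY17* (-1.04). *WRKY58*, described as a negative factor of systemic resistance, had 13 and 10 reads in the mutant at 37 °C and 2 and 0 at 22 °C, against 0 and 3 in WT at 37 °C. Its LFC in the mutant was 2.06 ± 0.32 (limma adjusted p = 0.0018), and the difference from the WT response was 1.72 ± 0.45 with an adjusted p of 1. *WRKY75* stood at 3.43 and 1.93 against 1.33 and 0.61, an LFC of 1.71 ± 0.53 (limma adjusted p = 0.048). Without a single library of *prr7prr9* at 22 or 37 °C, 7 of the 12 lost the call in at least 1 of 4 fits: *WRKY28* (LFC from -1.83 to -0.71), *WRKY41* (-2.29 to -0.90), *WRKY75* (0.96 to 2.46), *WRKY60* (-2.64 to -1.61), *WRKY35* (-2.48 to -1.97), *WRKY65* (-1.49 to -0.90) and *WRKY17* (-1.25 to -0.84). Each of the 4 libraries ended at least 1 of these calls.

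In *prr7prr9* cold, *WRKY33* rose by 2.35 ± 0.28 (limma adjusted p = 0.0020), *WRKY46* by 1.97 ± 0.35 (0.014), *WRKY11* by 1.93 ± 0.31 (0.0082), *WRKY57* by 1.33 ± 0.24 (0.016) and *WRKY7* by 1.11 ± 0.20 (0.016), with the limma adjusted p in brackets. *WRKY46*, a group III factor that responds to salicylic acid and osmotic stress, stood at 1.43 and 1.27 at 10 °C against -0.5 and -0.74 at 22 °C in the mutant and at 1.49 and 1.06 against 0.62 and -0.26 in WT. *WRKY46* was not called in WT cold, and in *prr7prr9* it kept its call in 0 of 4 fits without a single library. The 5 calls in the mutant rest on few libraries: only *WRKY33* kept its call in every such fit. A fit without the 4 libraries with most genes detected left 1 library in WT at 37 °C and in each *prr7prr9* group. That fit was too small to judge these calls.

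The WT responses were set against each other between the times as a difference of LFCs, ZT6 minus ZT1. In heat 4 of 61 members differed (9.44% of all genes), each with a lower LFC at ZT6: *WRKY27* (-2.17 ± 0.37, adjusted p = 8.1e-04), *WRKY72* (-2.02 ± 0.40, adjusted p = 0.0022), *WRKY41* (-1.87 ± 0.52, adjusted p = 0.043) and *WRKY53* (-1.58 ± 0.37, adjusted p = 0.011), all by limma. With the ZT6 values raised to the lowest ZT1 value, so that both tables have the same floor, the difference of *WRKY72* turned to 0.10 (adjusted p = 0.88). *WRKY27* had LFCs of 0.64 ± 0.24 at ZT1, which was not called, and -1.53 ± 0.29 at ZT6. The ZT1 value rests on 3 or 4 reads in each WT heat library and 0 to 7 at 22 °C. A reversal of its response between the times is therefore not shown. On the scale of recovered reads *WRKY27* (-2.98, adjusted p = 0.010) and *WRKY41* (-2.75, adjusted p = 0.030) were called again and *WRKY72* (-2.17, adjusted p = 0.138) and *WRKY53* (-0.61, adjusted p = 0.644) were not, while *WRKY29* (-2.36, adjusted p = 0.028) and *WRKY3* (1.32, adjusted p = 0.044) were added. *WRKY41* had 0 or 1 read in each WT library of 22 and 37 °C at ZT1. Its response there could hardly be measured, and its difference rests on the fall at ZT6. *WRKY53* had 0 or 1 read in each WT heat library at ZT1 and 1 to 14 at 22 °C, so that its LFC there was -0.65 on the deposited values and -1.76 on reads.

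In cold 5 of 61 members differed between the times (10.9% of all genes). *WRKY11* (1.67 ± 0.39, limma adjusted p = 0.0063), *WRKY51* (1.61 ± 0.33, limma adjusted p = 0.0021), *WRKY57* (1.18 ± 0.33, limma adjusted p = 0.019) and *WRKY30* (0.81 ± 0.25, limma adjusted p = 0.042) had the higher LFC at ZT6 and *WRKY53* (-1.32 ± 0.38, limma adjusted p = 0.027) the lower. All 5 were also called on reads. *WRKY11* stood at 4.26, 4.49 and 4.56 in cold and 4.08, 4.66, 4.75 and 3.66 at 22 °C at ZT1, where the groups overlapped, in contrast to its rise at ZT6. *WRKY57*, a factor of drought tolerance, stood at 4.17, 4.22 and 4.45 in cold against 4.6, 4.75, 4.66 and 4.21 at 22 °C at ZT1, and at 2.38 and 2.38 against 1.67 and 1.28 at ZT6. *WRKY51* alone kept this call in every fit without a single library, and *WRKY27* and *WRKY72* did so in heat. The WT values of *WRKY51* at 22 and 10 °C at ZT6 all lie below the ZT1 value of a gene without reads (1.23). The tables thus do not measure *WRKY51* over a common range. The same holds for *WRKY30*, which had 4 to 7 reads at 10 °C and 0 or 1 at 22 °C in WT at ZT6. *WRKY30* kept its call in 4 of 11 fits without a single library. *WRKY33* had a difference of 0.91 ± 0.40 (limma adjusted p = 0.164).

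**Figure D4:**
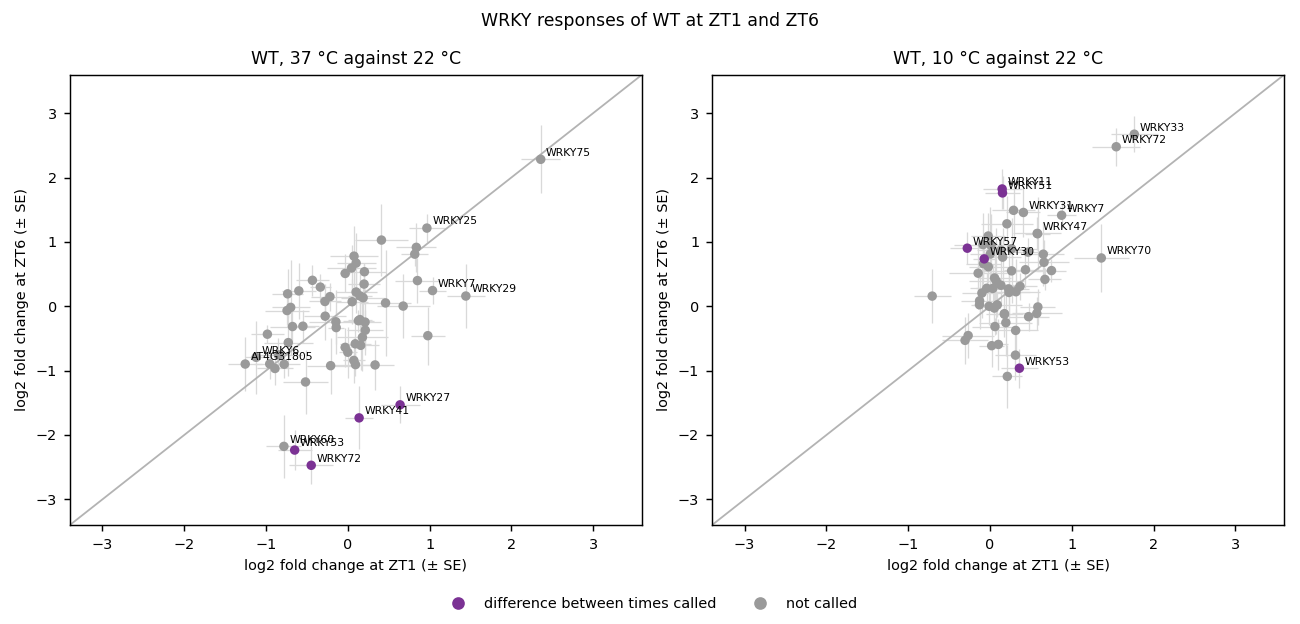
LFC in WT at ZT1 (horizontal axis, log2) against ZT6 (vertical axis, log2) of the WRKY members tested at both times, with standard errors, for 37 °C (left) and 10 °C (right); members whose difference between the times was called are purple. WRKY75 and WRKY33 lie high at both times, and the 4 purple members of the heat panel and the 5 of the cold panel are those named in the text.

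By group of the family, no group had more than 3 called members in a WT comparison. In *prr7prr9* heat 4 of 7 members of group IIe fell (7.45% of all genes called as lower), with a group median of -1.17. This was the largest count of any group of the family. Of the 4, *WRKY35* and *WRKY65* each kept the call in only 2 of 4 fits without a single library. In WT heat at ZT6 the group medians ran from -0.92 (IIa, 1 of 3 called) and -0.9 (IIe, 1 of 7) through -0.41 (III, 2 of 10) and -0.22 (IId, 0 of 7) to -0.13 (IIb, 1 of 8), -0.07 (IIc, 1 of 17) and 0.24 (I, 1 of 11). In WT cold at ZT6 they ran from -0.09 (III, 0 of 10) and -0.01 (I, 1 of 11) to 0.94 (IIa, 0 of 3) and 1.13 (IIb, 3 of 8). At ZT1 they ran from -0.56 (IIb, 1 of 8) to 0.15 (IIc, 1 of 15) in heat and from 0.07 (III, 1 of 8) to 0.47 (IId, 0 of 7) in cold. The groups are small and the counts are given as a description.

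The WRKY genes act within immune signalling, and a list of 28 genes of that pathway (MAP kinases, VQ-motif partners of WRKY proteins, salicylic acid genes and target or marker genes) was read in the same fits. In WT heat 4 of 28 were called at ZT1 and 6 at ZT6, beside 13.3% and 14.4% of all genes, and in WT cold 1 and 5, beside 1.87% and 5.94%, so these counts are given as a description of the named genes. In WT heat at ZT1, 3 rose and 1 fell, with a median LFC of -0.16: the camalexin enzyme gene *CYP71A13* fell by 1.23, and the defence marker *PR1* rose by 1.11, the salicylic acid transporter gene *EDS5* by 1.04 and the salicylic acid receptor gene *NPR3* by 1.01. In WT heat at ZT6, 2 rose and 4 fell, with a median of -0.34: the receptor gene *NPR4* rose by 2.00, and *EDS1*, a hub of basal resistance, (-1.52), *PR5* (-1.45) and the kinase gene *MPK3* (-1.34) fell. In WT cold at ZT1 only *MPK3* was called (1.21). In WT cold at ZT6, 3 rose and 2 fell, with a median of 0.34: the flagellin-induced kinase gene *FRK1* rose by 2.1, the salicylic acid regulator *CBP60G* by 1.94 and *MPK3*, whose product phosphorylates WRKY33, by 1.15, while the glucanase gene *PR2* fell by 1.62. *MPK3* thus passed the test as higher in WT cold at both times, as *WRKY33* did, and these are values of the same libraries.

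Some of the values given above are shared with neighbouring genes. Of the 70 members, 13 overlap another annotated gene, 12 of them a gene on the opposite strand, among them *WRKY33* (272 and 26 bases), *WRKY29* (251 bases, *GH9B15*) and *WRKY69* (345 and 373 bases). Reads in these stretches cannot be told apart without strand.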

How the data were processed

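RNA was sequenced from whole seedlings in 35 libraries. Per the paper, the authors trimmed reads with cutadapt, used TopHat2 (2.0.14, on Bowtie2 2.2.5) for alignment to TAIR10, counted reads over Araport11 exons, added 5 to each count, scaled with edgeR and quantile-normalised with voom, separately for each time. The deposited values are log2 CPM. Strand use is not given in the sources used here.

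Here limma 3.58.1 (R 4.3.3; lmFit, contrasts.fit, eBayes with trend) was fitted to the deposited values of the 6 groups of a time, over genes that exceeded the floor of the table in at least 3 (ZT1) or 2 (ZT6) libraries, with Benjamini-Hochberg adjustment over all genes tested. Differences between times used both fits with Satterthwaite degrees of freedom. The fits were tested on simulated data. Since every gene of a library shares the same offset, ranked distinct values give read counts: on simulated libraries at least 99.0% of counts were recovered exactly and totals were within 12.1%, and 92.3% of WRKY values lie in the exactly read range. Totals are therefore estimates, and intervals for counting error are not given.

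Groups came from the labels. The ZT6 columns carry replicate numbers other than those of the labels and were matched to groups only. At ZT1 libraries of the same number did not deviate together (median correlation 0.018 over 55 pairs, against 0.0019 over 165 pairs of different number), so the numbers were not used as pairs.

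The members and the lists were chosen with earlier results of these data known. Named were the called members with the largest changes (up to 10 in each direction for each WT temperature comparison, up to 5 for each genotype comparison, interaction and time difference), members with a known heat or cold role, group IIa, members without reads, up to 4 called immune genes in each WT comparison and the targeted genes. Members called within a mutant or on recovered reads only were named after their values were seen. RefSeq held all 70 members. Alternatives changed the filter, variance trend, library weights, centring, samples fitted, offset range, replicate block and single libraries. A further 3 were added after seeing the data.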

Additional observations from a re-analysis of the deposited data

Results flagged for a closer look

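Among 164 groups of 4 libraries of 34 named members at ZT1, 22 held a library whose gap to the nearest other was large against the range of the group, where chance gives about 1 in 20. In 10 of them the other 3 libraries had no read of the gene and stood at 1.23, so that few reads made the gap (6 for *WRKY28* in WT at 22 °C and 1 to 3 in the others): *WRKY28* in WT at 22 °C (1.96) and in *cca1lhy* at 37 °C (1.94), *WRKY34* in WT at 22 °C (1.36) and *cca1lhy* at 10 °C (1.27), *WRKY60* in WT (1.91) and *cca1lhy* (1.81) at 37 °C, and *WRKY24* (2.29), *WRKY30* (1.86), *WRKY51* (1.73) and *WRKY72* (1.86) in *cca1lhy* at 37 °C.

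The other 12 had reads in most libraries. In WT, *WRKY14* was low in replicate 1 at 22 °C (3.94), *WRKY46* low in replicate 4 at 22 °C (1.23), *WRKY24* high in replicate 4 (2.18) and *WRKY29* high in replicate 2 (2.2) at 22 °C, and *WRKY39* high in replicate 1 at 37 °C (5.52). In *cca1lhy* at 22 °C, replicate 1 was low for *WRKY3* (4.36) and *WRKY35* (2.66) and high for *WRKY27* (2.77), and replicate 4 was high for *WRKY69* (4.66, the others 3.47 to 3.6). In *cca1lhy* at 10 °C, *WRKY25* was low in replicate 3 (3.59), *WRKY69* low in replicate 4 (3.38) and *WRKY41* high in replicate 1 (1.84).

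The response to 37 °C differed between *cca1lhy* and WT for *WRKY7* (-1.72) and *WRKY24* (-1.5). Between the times, ZT6 minus ZT1, the WT response to 37 °C differed for *WRKY27* (-2.17), *WRKY72* (-2.02), *WRKY41* (-1.87) and *WRKY53* (-1.58), and that to 10 °C for *WRKY11* (1.67), *WRKY51* (1.61), *WRKY53* (-1.32), *WRKY57* (1.18) and *WRKY30* (0.81), on the log2 scale by limma. Time and sequencing run cannot be told apart in these differences.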

How the results depend on the processing

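Re-centring the libraries and dropping the variance trend moved no count of called members by over 1.5 times. On recovered reads the counts were 17 for WT heat at ZT1, 7 for WT cold at ZT1, 13 for *cca1lhy* heat, 1 for *cca1lhy* against WT at 22 °C, 12 for WT heat at ZT6 and 8 for *prr7prr9* cold, in place of 5, 3, 4, 0, 7 and 5. Without the 4 ZT6 libraries with most genes detected, where the lone library of a group was assumed to vary like the others, they were 1 for WT heat, 0 for *prr7prr9* heat and cold and 2 for the difference of heat responses, in place of 7, 12, 5 and 4. Fewer libraries entered these fits, and the cause was not tested further. With ZT6 values raised to the lowest ZT1 value, *prr7prr9* heat gave 6, and *WRKY72* reversed in the difference of heat responses (0.10, adjusted p = 0.88). Fitting only the groups compared gave 10 for *prr7prr9* cold. The difference of cold responses gave 3 with no filter and 3 with a stricter one.

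Leaving out single libraries, the counts ran from 5 to 8 (WT heat, ZT1), 2 to 3 (WT cold, ZT1), 4 to 7 (*cca1lhy* heat), 0 to 4 (*cca1lhy* cold), 0 to 1, 3 to 4 and 0 to 0 (*cca1lhy* against WT at 22, 37 and 10 °C), 2 to 3 (interaction with heat), 4 to 10 and 5 to 7 (WT heat and cold, ZT6), 6 to 11 and 1 to 3 (*prr7prr9* heat and cold), and 3 to 7 and 2 to 7 (differences of heat and cold responses). With the replicate number as a block at ZT1 the counts were 5, 3, 4 and 2 for WT heat and cold and *cca1lhy* heat and cold. The block ended 1 named call, *WRKY70* in *cca1lhy* cold (adjusted p = 0.0513). At ZT6 a block on the numbers that the columns carry, which are not those of the labels, was added after seeing the data. Libraries of the same number there correlated from -0.40 to 0.30 in their deviations (22 pairs). The median was 0.12, against -0.03 over 38 pairs of different number. With 2 libraries in a group their deviations mirror each other, so these values cannot decide whether the numbers pair the libraries. With this block the counts were 6 and 6 for WT heat and cold and 11 and 5 for *prr7prr9* heat and cold. It ended the calls of *WRKY41* in WT heat and *prr7prr9* heat and of *WRKY31* and *WRKY47* in WT cold. Depth limits ZT1 most, where many members had under 10 reads in a library.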
